A study of Rattus norvegicus with 12 samples.

Results

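Heat shock chaperones were followed in the jejunal mucosa of rats of a low Fe and a high Fe group. The set holds Hspa1a, Hspa8, Hspb1, Hsp90aa1, Hsph1, Dnajb1, Dnaja1, Hspd1 and Hspe1, and its probe sets are those that the annotation of the array assigns to 1 of these symbols and to no other gene. Of the 9 genes, 7 were measured this way, by 10 probe sets, out of 13810 genes and 20347 probe sets with a symbol of their own in the whole series. A filter on low signals left 6 of the genes and 9 of their probe sets in the test. Hspa8 had 1 probe set and Hsp90aa1 had 2, all shared with other genes, so neither is reported, and a further probe set shared by Hspa1a and another gene was set aside.

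The RNA came from scrapings of the mucosa of the jejunum, the stretch of small intestine behind the duodenum. The labels give iron deficiency and anemia as keywords and a week number of 12 for every sample, without saying what the weeks count. The low Fe group and the high Fe group had 3 samples each, here low Fe 1 to 3 and high Fe 1 to 3, on Affymetrix rat arrays of types 230A and 230B. Arrays of both types with the same group and number are taken here as the same sample, which the titles do not state. Strain, sex, diet and whether a sample was 1 animal or a pool are not given in the sources used here, so the spread between samples may be technical.

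Heat shock chaperones bind proteins that are unfolded or newly made and help them fold. HSP70 proteins do this in cycles of ATP hydrolysis: J proteins such as Dnajb1 and Dnaja1 deliver clients and start hydrolysis, and HSP110 proteins such as Hsph1 exchange the nucleotide so that the client is let go. Hspd1 (HSP60) and Hspe1 (HSP10) form the chamber and the lid of the chaperonin of the mitochondrial matrix. When unfolded proteins build up, heat shock factor 1 binds to heat shock elements, which are inverted repeats of GAA, and raises the transcription of many of these genes. The epithelium of the small intestine is renewed continually from dividing crypt cells.

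Of the 9 genes, 8 had a promoter window in the RefSeq table of build GRCr8, the exception being Hsp90aa1. In the 250 bases before the annotated start, 7 of the 8 held a pair of inverted units, TTCNNGAA or GAANNTTC, against 13.5% of 33469 rat windows of that length. Both motifs are their own reverse complement, so both strands were searched. The longer motifs TTCNNGAANNTTC or GAANNTTCNNGAA, which contain the shorter ones, were found for Hspa8, Hsph1, Hspd1 and Hspe1, 4 of the 8, against 0.663% of all windows. Hspd1 and Hspe1 hold the same site, described below, so the 7 and the 4 each include that site for both genes. The windows of 4 genes and 1 shared site are shown, because they belong to the genes whose measurements are compared below, and capitals mark the bases inside a motif.
Hsph1, chr12:10427118-10427367, + strand: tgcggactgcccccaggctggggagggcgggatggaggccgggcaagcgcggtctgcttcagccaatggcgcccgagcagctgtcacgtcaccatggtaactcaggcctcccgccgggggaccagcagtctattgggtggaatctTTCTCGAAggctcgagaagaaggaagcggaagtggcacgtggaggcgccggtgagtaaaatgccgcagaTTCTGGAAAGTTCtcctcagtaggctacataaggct
Dnajb1, chr19:41431142-41431391, − strand: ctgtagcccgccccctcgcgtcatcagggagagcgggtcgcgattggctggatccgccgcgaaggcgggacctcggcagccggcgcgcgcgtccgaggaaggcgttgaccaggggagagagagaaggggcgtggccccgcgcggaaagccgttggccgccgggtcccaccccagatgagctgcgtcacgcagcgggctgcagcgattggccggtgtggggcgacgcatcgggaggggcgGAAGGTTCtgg
Dnaja1, chr5:60638154-60638403, + strand: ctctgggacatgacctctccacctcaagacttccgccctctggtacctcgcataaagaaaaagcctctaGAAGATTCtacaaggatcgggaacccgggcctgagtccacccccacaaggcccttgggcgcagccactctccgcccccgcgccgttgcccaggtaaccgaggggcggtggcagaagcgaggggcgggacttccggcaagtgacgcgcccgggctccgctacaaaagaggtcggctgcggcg
Hspa1a, chr20:3859506-3859755, + strand: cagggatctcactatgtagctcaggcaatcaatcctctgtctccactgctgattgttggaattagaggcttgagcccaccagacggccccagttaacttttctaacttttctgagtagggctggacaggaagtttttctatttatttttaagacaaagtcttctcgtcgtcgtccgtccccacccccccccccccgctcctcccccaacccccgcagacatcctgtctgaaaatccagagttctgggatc
Hspd1 and Hspe1 shared site, chr9:64084256-64084285, + strand: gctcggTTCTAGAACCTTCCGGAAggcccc

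Hspd1 and Hspe1 are neighbours on chromosome 9 and are transcribed away from each other. Their annotated starts lay 289 bases apart, and their windows overlapped by 211 bases. The shared site is a run of 18 motif bases in the middle of 30, centred 56 bases before the start of Hspe1 and 234 bases before that of Hspd1. The annotated extent of the Hspd1 gene runs to base 64084332, past this site and past the Hspe1 start at 64084327. The distances of 289 and 234 bases hold for the Hspd1 start at 64084037, which its window uses. In the Hsph1 window the motifs lay 105 to 31 bases before the start, in that of Dnajb1 11 bases and in that of Dnaja1 181 bases before it. The Hspa1a window held neither motif. That window lies before the annotated start at base 3859756, and the annotated extent of the gene runs for 4045 bases from there. Bases outside the window were not searched, so whether Hspa1a has a motif elsewhere, or near another start, was not tested. A match describes these letters and does not show that a factor binds there.

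Arrays had median signals between 154.5 and 176.2 (230A) and between 259.5 and 302.8 (230B), in units that the authors had scaled. The iron uptake genes separated the groups as labelled: Cybrd1, Slc11a2 and Tfrc were higher in low Fe by 3.91 ± 0.28, 2.19 ± 0.15 and 2.74 ± 0.23 on the log2 scale (SE), with limma adjusted p-values of 0.000892, 0.000892 and 0.00216. A sign of RNA quality, the 5′/3′ ratio of the GAPDH control probe sets, was 0.794 to 0.811 in low Fe 2, low Fe 3 and high Fe 1 on 230A, and 0.876 to 0.922 in low Fe 1, high Fe 2 and high Fe 3. The same ratio of actin was 0.0539 in low Fe 3, against 0.591 to 0.836 on the other 230A arrays. All 13 measured enterocyte markers were above the filter, and their summed signal was 119900 to 150400 in low Fe and 113900 to 183800 in high Fe. Markers of other cells were summed likewise. Smooth muscle markers were 4676 to 6091 in low Fe and 3658 to 4317 in high Fe. Crypt and proliferation markers were 2456 to 3835 in low Fe and 1529 to 1742 in high Fe. Most of each sum was 1 gene. Mylk had 3390.7 to 4013.3 in low Fe and 2436 to 2925.9 in high Fe. Pcna had 1736.8 to 2686 in low Fe and 1000 to 1068.2 in high Fe. Actg2, Cnn1 and Tagln of the first list and Ascl2, Cdk1 and Lgr5 of the second were below the filter. In neither of these lists did the groups overlap, and 0 of the 6 and 0 of the 4 tested genes passed the threshold. The sums of the groups did overlap for the other lists: goblet and Paneth, enteroendocrine, stromal, immune, endothelial, and nerve and glia markers. In such bulk RNA, more cells of a type and more transcript per cell cannot be told apart.

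No heat shock chaperone probe set passed the limma threshold of an adjusted p of 0.05. On 230A this was 0 of 8 probe sets, where 9 of all 9519 tested probe sets passed (0.0945%), and on 230B it was 0 of 1, where 0 of 9165 passed (0%). At an unadjusted p under 0.05 there was 1 chaperone probe set on 230A, that of Hspa1a, beside 6.68% of all, and 0 on 230B, beside 10.2% of all. Log2 differences of low Fe minus high Fe lay above 0 for 4 of the 8 probe sets on 230A and below 0 for the other 4. By gene, with the brightest probe set standing for each, the median over the 6 tested genes was 0.25, with 4 above 0, and over all 7051 tested named genes it was -0.0017, with 49.6% above 0. The median of the 6 was 0.09 without low Fe 2, 0.41 without low Fe 1 and 0.13 with arrays blocked by GAPDH 5′/3′ ratio. Hspa1a was the 1 chaperone probe set on 230A whose low Fe samples all lay above the high Fe samples, as 5.61% of all tested probe sets did, and Dnaja1 was the 1 whose low Fe samples all lay below, as 6.18% did. On 230B, where the single probe set overlapped, the same shares were 7.11% and 10.3%.

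**Figure D1:**
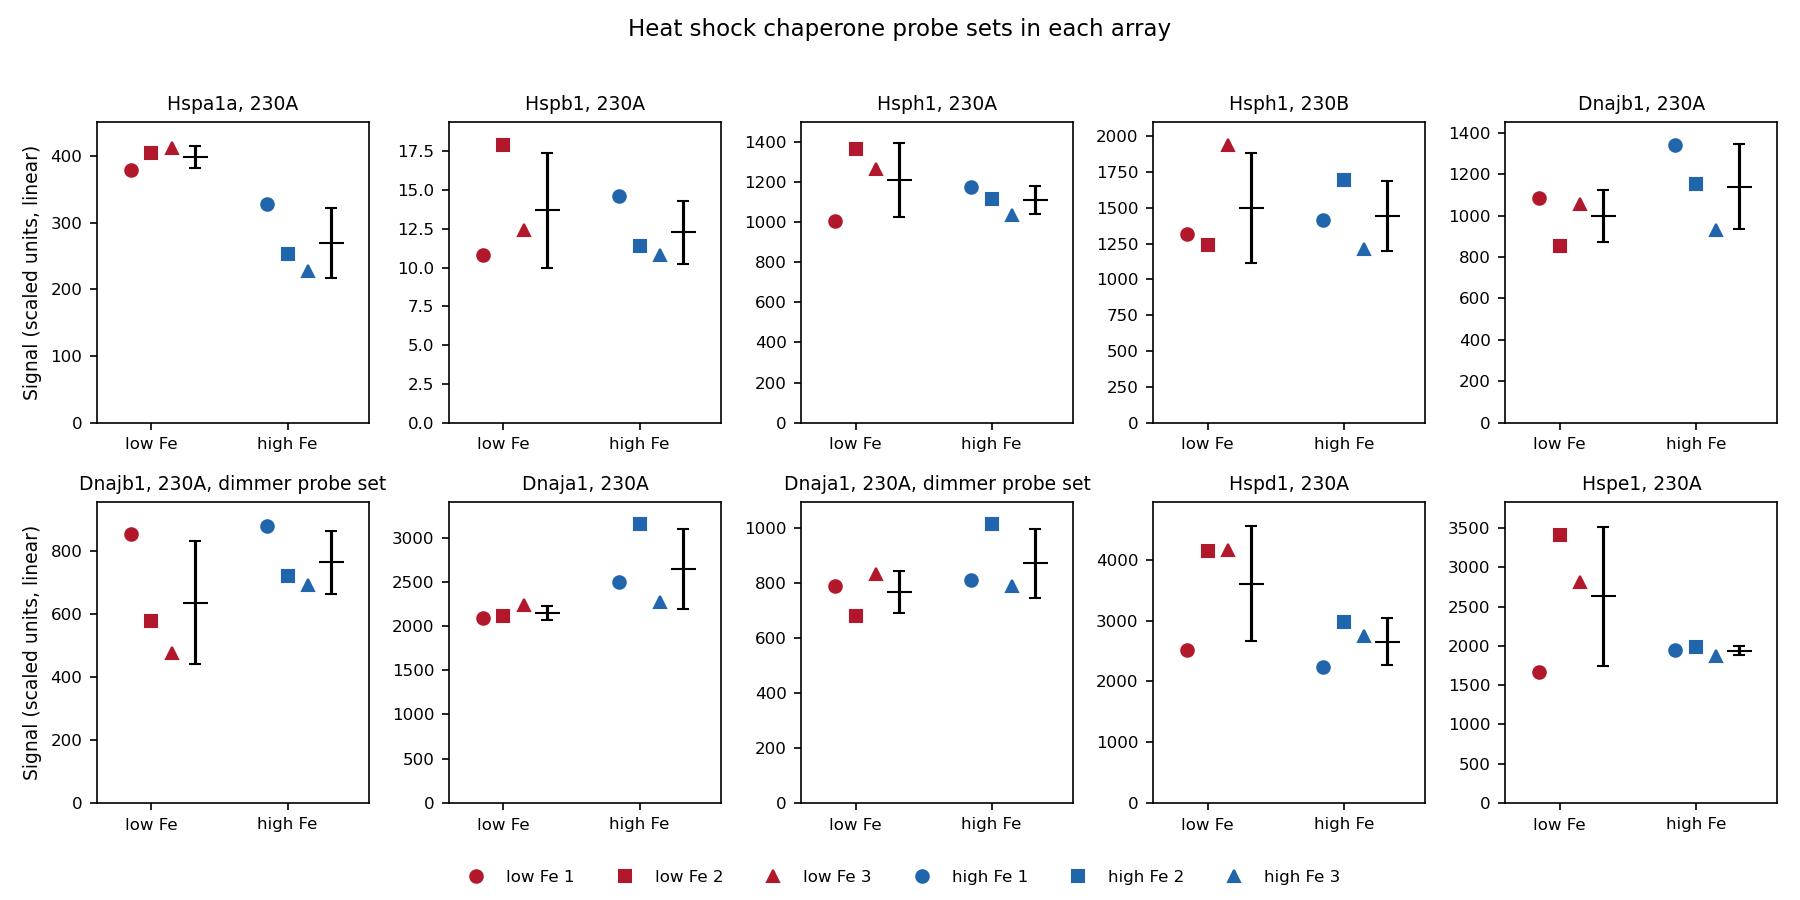
Signal of each of the 10 heat shock chaperone probe sets (vertical axes, scaled linear units, each from 0) in the low Fe and high Fe samples, with 1 point a sample and the mean ± SD (n = 3) in black beside them. Hspa1a is separated upward in low Fe, the brighter Dnaja1 probe set is separated downward, and the groups overlap in the other 8.

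Hspa1a is the HSP70 protein that cells make in large amounts after heat or other proteotoxic stress. Its probe set (1370912_at) had signals of 379.2, 404.4 and 411.4 in low Fe 1 to 3, against 328.2, 252.9 and 227 in high Fe 1 to 3. Every low Fe sample was above every high Fe sample, and the spread was wider in the high Fe group, with 398 ± 16.9 in low Fe and 269 ± 52.6 in high Fe (mean ± SD, n = 3 each). The log2 difference was 0.55 ± 0.17 (SE; 95% interval 0.18 to 0.93), or 1.47-fold, and did not pass (limma adjusted p = 0.602, and 0.273 to 0.999 over the alternatives). It was 0.30 among the arrays with the lower GAPDH ratios, with 2 low Fe and 1 high Fe array, and 0.63 among the others, with 1 low Fe and 2 high Fe arrays, neither with a test. The summed smooth muscle and crypt markers were higher in low Fe as Hspa1a was, and their part in the difference was not tested.

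Hsph1, the HSP110 partner of HSP70, was measured on both array types. On 230A (1388898_at) it had signals of 1005.4, 1362.2 and 1263.4 in low Fe 1 to 3, against 1175.9, 1114.1 and 1036.6 in high Fe 1 to 3. On 230B (1385620_at) they were 1318.5, 1242.6 and 1939.1 in low Fe 1 to 3, against 1417, 1697 and 1210.4 in high Fe 1 to 3. The groups overlapped on both types, and the sample with the highest signal was low Fe 2 on 230A and low Fe 3 on 230B. The log2 differences were 0.12 ± 0.15 (95% interval -0.22 to 0.45, limma adjusted p = 0.886) on 230A and 0.04 ± 0.22 (-0.46 to 0.54, adjusted p = 0.955) on 230B. The 230A difference was 0.24 without low Fe 1 and 0.03 without low Fe 2, and the 230B difference was below 0 without low Fe 3 or without high Fe 3.

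The J proteins Dnajb1 and Dnaja1, which bring clients to HSP70, had log2 differences below 0 in all 4 of their probe sets. For Dnaja1 the brighter probe set (1398819_at) had signals of 2095.3, 2111.4 and 2231.6 in low Fe 1 to 3, against 2498.7, 3152.1 and 2276.6 in high Fe 1 to 3. The groups did not overlap, but low Fe 3 and high Fe 3 were close and high Fe 2 stood highest. The log2 difference was -0.29 ± 0.14 (95% interval -0.61 to 0.04, limma adjusted p = 0.761), and -0.15 without high Fe 2. The dimmer probe set of Dnaja1 (1368852_at) had signals of 789.3, 680.9 and 832 in low Fe 1 to 3, against 811.1, 1015.6 and 788.9 in high Fe 1 to 3. Here the groups overlapped, with a log2 difference of -0.18 ± 0.15 (adjusted p = 0.850).

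Dnajb1, the J protein most closely tied to the heat shock response, had signals of 1085.1, 852.9 and 1058.1 in low Fe 1 to 3, against 1339.8, 1151.3 and 929.9 in high Fe 1 to 3 (1388722_at). A dimmer probe set (1383302_at) gave 854.6, 578.1 and 476.1 in low Fe 1 to 3, against 880, 722.9 and 693.2 in high Fe 1 to 3. High Fe 1 had the highest signal in both, and the groups overlapped in both. The log2 differences were -0.18 ± 0.17 (limma adjusted p = 0.857; -0.06 without high Fe 1) and, for the dimmer probe set, -0.29 ± 0.21 (adjusted p = 0.815; -0.52 without low Fe 1). Among the arrays with the lower GAPDH ratios the brighter probe set gave -0.49, and among the others 0.07. All 4 differences of Dnajb1 and Dnaja1 lay above 0, at 0.07 to 0.19, once the hybridization controls were set equal, a scaling that moved the median of all tested probe sets from -0.01 to 0.34, so all 4 stayed under that median.

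Hspb1 (HSP27), a small heat shock protein that holds unfolded clients without ATP, was near the bottom of the signal range. Its probe set had signals of 10.8, 17.9 and 12.4 in low Fe 1 to 3, against 14.6, 11.4 and 10.8 in high Fe 1 to 3. All 6 lay far under the filter boundary of 106.1 on 230A, so no comparison was made.

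Hspd1 and Hspe1, the mitochondrial chaperonin and its lid, were high in the same pair of low Fe samples. Hspd1 (1386894_at) had signals of 2519.5, 4147.5 and 4156 in low Fe 1 to 3, against 2234.6, 2983.2 and 2744.6 in high Fe 1 to 3. Hspe1 (1386898_at) had signals of 1669.8, 3415.1 and 2816 in low Fe 1 to 3, against 1952, 1988.1 and 1872.1 in high Fe 1 to 3. In both genes low Fe 2 and low Fe 3 were above all high Fe samples, while low Fe 1 lay among them for Hspd1 and under them for Hspe1. The log2 differences were 0.41 ± 0.21 (95% interval -0.06 to 0.89, limma adjusted p = 0.761) for Hspd1 and 0.38 ± 0.23 (-0.15 to 0.91, adjusted p = 0.785) for Hspe1.

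Both differences changed in size with single arrays left out, and both stayed above 0 under every alternative run. Without low Fe 1 they were 0.65 for Hspd1 and 0.67 for Hspe1, with 0.128 the lowest adjusted p of either under any alternative, without low Fe 3 that of Hspd1 was 0.29, and without low Fe 2 that of Hspe1 was 0.16. Low Fe 2 and low Fe 3 are also the low Fe arrays with the lower GAPDH ratios on 230A. On 230B low Fe 3 had a ratio of 0.873 and fell in the higher set. Its actin ratio was far under those of the other samples on both types, at 0.0539 on 230A and 0.0473 on 230B. Among the 230A arrays with lower GAPDH ratios, which include high Fe 1, the differences were 0.89 for Hspd1 and 0.66 for Hspe1. Among the arrays with higher ratios, where low Fe 1 stands against high Fe 2 and high Fe 3, they were -0.18 and -0.21. With these ratio sets as a block in the fit, Hspd1 gave 0.35 and Hspe1 0.23 (limma adjusted p = 0.882 and 0.952). Summed crypt and proliferation markers were 2456, 3835 and 2536 in low Fe 1 to 3, against 1529, 1713 and 1742 in high Fe 1 to 3, so low Fe 2 was highest there too, while low Fe 1 and low Fe 3 were near each other.

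**Figure D2:**
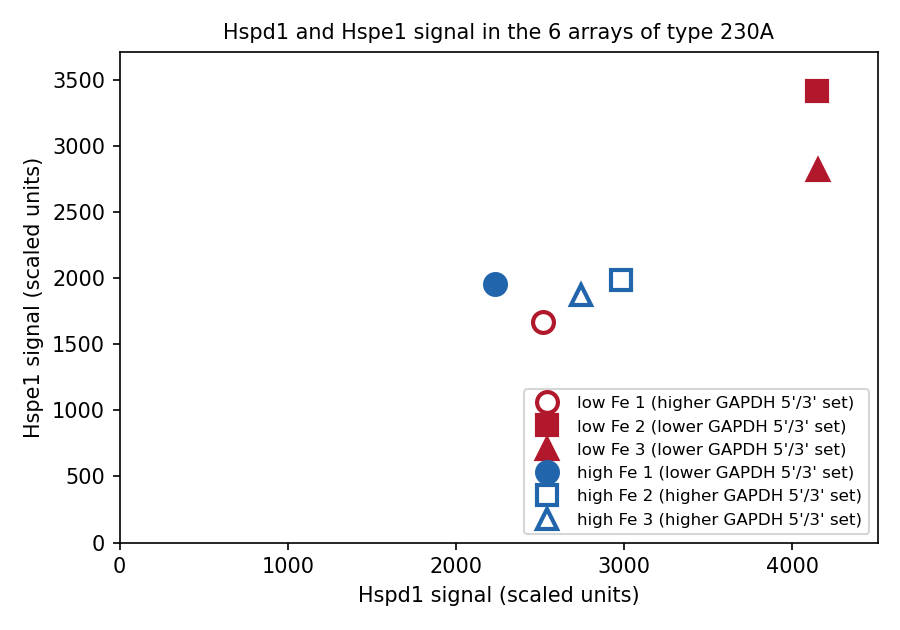
Hspe1 signal (vertical axis) against Hspd1 signal (horizontal axis), both in scaled linear units from 0, with 1 point for each of the 6 arrays of type 230A and filled points for the lower GAPDH 5′/3′ ratios. Low Fe 2 and low Fe 3 stand apart at the upper right, and low Fe 1 lies with the 3 high Fe arrays.

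**Figure D3:**
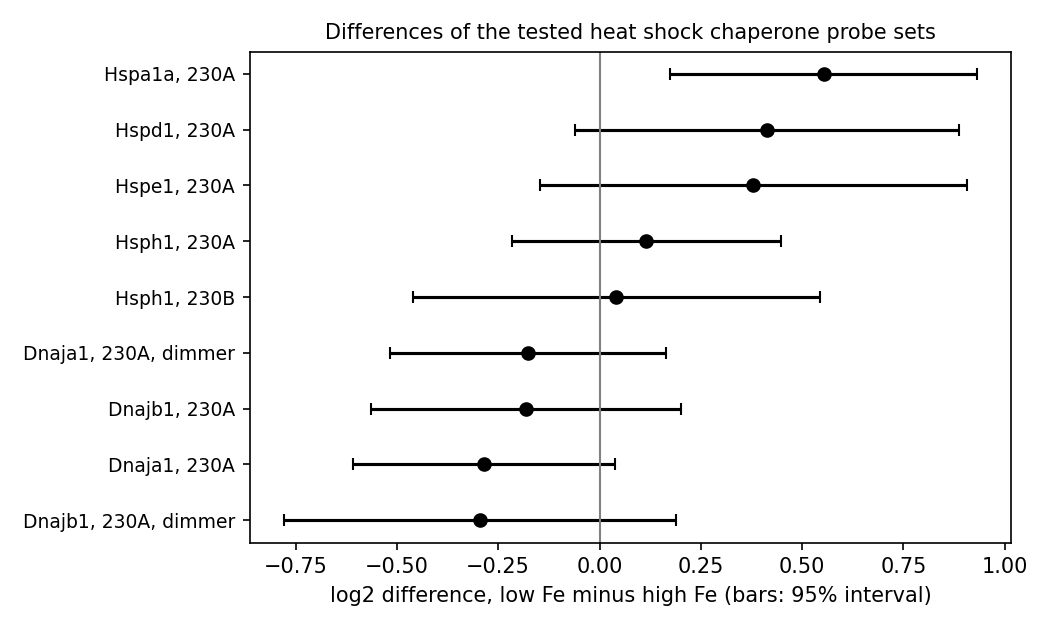
Log2 difference, low Fe minus high Fe, of each of the 9 tested heat shock chaperone probe sets (horizontal axis), with its 95% interval. The interval of Hspa1a lies above 0, those of the other 8 cross 0, and no probe set passed the adjusted threshold.

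Across the 6 arrays of 230A, Hspe1 followed Hsph1 most closely among the 15 pairs of the 6 tested genes. Pearson's r was 0.946 and Spearman's rho 0.943, with exact two-sided permutation p-values of 0.00278 and 0.0167 that are 0.0417 and 0.25 after adjustment over the 15 pairs (n = 6). Without low Fe 2 and low Fe 3, the arrays farthest from the median, r was 0.82 (n = 4). The 230B probe set of Hsph1 did not show this in the 6 samples as matched by group and number: its r with Hspe1 was 0.178 and its rho 0.314 (exact two-sided permutation p = 0.738 and 0.564, n = 6), and 0.561 was r without the 2 samples. For Hspd1 and Hspe1, r was 0.898 and rho 0.771, with exact permutation p-values of 0.025 and 0.103, adjusted 0.188 and 0.495 (n = 6). That relation rested on low Fe 2 and low Fe 3, without which r was 0.192. The other 13 pairs had r from -0.644, for Dnajb1 and Hspd1, to 0.741, for Hspd1 and Hsph1, and their lowest adjusted p was 0.49. Hspa1a and Dnajb1, both classed as inducible by stress, had an r of -0.08 over the 6 arrays and one of 0.69 once the group means were taken out. With group means taken out, r was 0.948 for Hspe1 and Hsph1 and 0.857 for Hspd1 and Hspe1. Values of r without group means were not tested. The iron groups and RNA quality are shared by all points, so these values describe the 6 arrays.

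**Figure D4:**
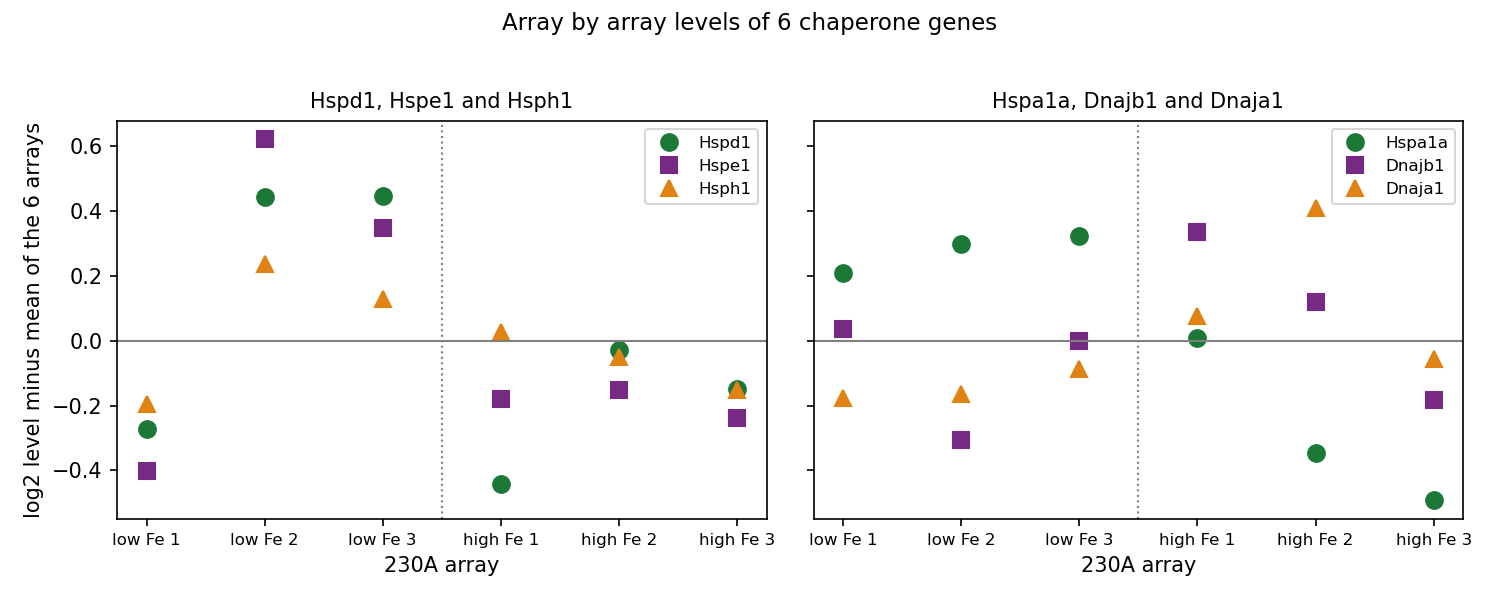
Level of each tested gene on the 6 arrays of type 230A as a log2 deviation from its mean over them (vertical axis; brighter probe set where there are several), with low Fe left of high Fe and 1 point a gene and array. Hspd1, Hspe1 and Hsph1 are high in low Fe 2 and low Fe 3 and low in low Fe 1, whereas Hspa1a is above its mean in all low Fe arrays and Dnaja1 below it.

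The heat shock factors, which control these genes, did not pass. Hsf1, the main factor of the response, had a log2 difference of 0.01 ± 0.20 on 230A (limma adjusted p = 0.995), with 163.1 to 180.6 in low Fe and 126.7 to 201.1 in high Fe; it lay below 0 under 3 alternatives. Hsf2 gave 0.43 ± 0.21 on 230A (adjusted p = 0.757), and 0.19 ± 0.26 and, for another probe set of like signal, 0.64 ± 0.41 on 230B. Hsbp1, which binds and restrains heat shock factor 1, had signals of 672.9, 618.1 and 664.9 in low Fe 1 to 3, against 693.4, 770.7 and 798.6 in high Fe 1 to 3. The groups did not overlap, and the difference of -0.20 ± 0.13 did not pass (adjusted p = 0.786; above 0 with hybridization controls set equal). Of the 4 tested genes of this list on 230A, 0 passed, with 2 above 0 and 2 below. In 2 of the 4 the low Fe samples all lay below the high Fe samples, beside 6.18% of all tested probe sets.

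Partners of the set lay on both sides of 0 and did not pass. Among other HSP70 and HSP110 genes, 0 of 3 passed on 230A, and Hspa4, an HSP110 relative, gave 0.39 ± 0.17 (limma adjusted p = 0.742). Hspa14, an HSP70 protein of the ribosome, gave 0.41 ± 0.18 on 230B (adjusted p = 0.497), where its low Fe samples all lay above the high Fe samples. Hspa4l, another HSP110 relative, lay the other way on 230B at -0.35 ± 0.20 (adjusted p = 0.554), also without overlap, and the 3 tested genes of this list there had a median of -0.13, with 1 above 0 and 2 below. Of all tested probe sets on 230B, 7.11% were higher in low Fe without overlap and 10.3% lower. Other J proteins numbered 17 on 230A, with 0 past the threshold, 7 above 0, 10 below and a median of -0.11. On 230B they numbered 10, with 0 past, 7 above 0, 3 below and a median of 0.16. Without overlap, 3 of the 17 were higher in low Fe and 2 lower on 230A, beside 5.61% and 6.18% of all. Likewise 3 of the 10 were higher and 1 lower on 230B, beside 7.11% and 10.3% of all. Dnajc27, a J protein with a GTPase domain, gave 0.70 ± 0.25 on 230A (adjusted p = 0.681), and Dnajc11, a mitochondrial one, 0.66 ± 0.19 on 230B (adjusted p = 0.456), both without overlap. The mean of Dnajc27 was 141 in low Fe and 83 in high Fe, the latter under the filter boundary of 106.1. Dnajc27 thus passed the filter through its low Fe samples, and its difference is one near the floor. Dimmer 230B probe sets of Dnajc11 gave -0.14 ± 0.23 and 0.07 ± 0.23. Dnajc5, the cysteine string protein of secretory vesicles, had signals of 1781.4, 2030.8 and 1685 in low Fe 1 to 3, against 1396.2, 1461.4 and 1340.2 in high Fe 1 to 3. Its groups did not overlap on either type, with 0.38 ± 0.12 on 230A (adjusted p = 0.653; 0.03 for a dimmer probe set) and 0.49 ± 0.15 on 230B (adjusted p = 0.456). Dnaja3, the J protein of mitochondrial HSP70, lay the other way, with 341.9, 322.5 and 303.8 in low Fe 1 to 3, against 372.3, 449.1 and 496.4 in high Fe 1 to 3. Its difference of -0.42 ± 0.15 did not pass (adjusted p = 0.693). Other small heat shock proteins numbered 3 on 230A, with 0 past, 1 above 0, 2 below and a median of -0.14. Among them Cryaa gave -0.69 ± 0.21 (limma adjusted p = 0.622), with all low Fe samples below the high Fe samples. Cryaa signals averaged 90.1 in low Fe and 152.8 in high Fe, and only the high Fe mean exceeded the cut of 106.1. The separation of Cryaa is therefore one close to the floor.

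Of 17 tested cytosolic co-chaperones on 230A, 0 passed, 10 lay above 0 and 7 below, with a median of 0.12. Bag3, a nucleotide exchange factor of HSP70 that heat shock factor 1 induces, had signals of 1075.6, 854.9 and 1116.4 in low Fe 1 to 3, against 799.4, 654 and 837.6 in high Fe 1 to 3. Its difference was 0.40 ± 0.16 (limma adjusted p = 0.720). It was the 1 co-chaperone whose low Fe samples all lay above the high Fe samples, beside 5.61% of all tested probe sets. In 2 of the 17, Fkbp5 and Unc45a, the low Fe samples all lay below, beside 6.18% of all. Fkbp5, an immunophilin of HSP90 that glucocorticoids induce, gave -0.78 ± 0.34 on 230A (adjusted p = 0.735) and -0.86 ± 0.47 on 230B (adjusted p = 0.546). High Fe 1 had the highest Fkbp5 signal on both types. Hsp90ab1, the constitutive cytosolic HSP90, gave 0.26 ± 0.16 (adjusted p = 0.785), and a much dimmer probe set gave -1.70 ± 1.03.

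All 8 genes of the cytosolic chaperonin, the ring that folds actin and tubulin, were tested on 230A and all 8 lay above 0, with a median of 0.13 and a range of 0.04 to 0.18, and 0 passed. In all tested named genes the share above 0 was 49.6%, and the subunits are not independent of each other. Without low Fe 2, Cct4 lay at -0.0044. On 230B, 2 of the 3 tested genes lay above 0 and 1 below. There Cct8 gave 0.94 ± 0.32 (limma adjusted p = 0.456), whereas its 230A probe set, near the filter boundary, gave 0.13 ± 0.21. Cct5 gave 0.26 ± 0.18 on 230B, and -0.24 ± 0.18 for a dimmer probe set. Cct7 gave -0.10 ± 0.24 on 230B, and lay above 0 there under 4 alternatives. Over the 6 arrays the chaperonin genes had a median r of 0.716 with the mean of Hspd1 and Hspe1, against 0.0531 over 7045 named genes. Cct5 had 0.965 and Hsp90ab1 0.94. Over 0.8 were 2 of the 8 chaperonin genes (25%), against 5.89% of all named genes. So were 4 of 17 cytosolic co-chaperones (23.5%, median r 0.387) and 3 of 22 endoplasmic reticulum genes (13.6%, median r 0.171). The mean of Hspd1 and Hspe1 was highest in low Fe 2 and low Fe 3, without which r between these 2 genes was 0.192. Cct5 was highest in low Fe 2, with 985, 1591.2 and 1373.5 in low Fe 1 to 3, against 1078.4, 1224.5 and 1121.3 in high Fe 1 to 3.

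Other mitochondrial chaperones and proteases lay mostly below 0, unlike Hspd1 and Hspe1, and the difference between the sets was not tested. Of 13 tested on 230A, 3 lay above 0 and 10 below, with a median of -0.08, and 0 passed. The same genes had a median r of -0.363 with the mean of Hspd1 and Hspe1 and lay on both sides of 0, from -0.685 to 0.851. Grpel1, the nucleotide exchange factor of mitochondrial HSP70, had 0.851 and Lonp1 0.789, and 2 of the 13 (15.4%) were over 0.8, against 5.89% of all named genes. Hspa9, the HSP70 of the mitochondrial matrix, gave -0.16 ± 0.18 (limma adjusted p = 0.879), with -0.47 ± 0.27 and -0.01 ± 0.18 for dimmer probe sets. It lay above 0 without high Fe 3 and with hybridization controls set equal. Lonp1, a matrix protease, gave 0.30 ± 0.17 (adjusted p = 0.778), and Clpb, a disaggregase, gave -0.84 ± 0.34 on 230B (adjusted p = 0.466) and -0.13 ± 0.16 on 230A. The 230B mean of Clpb was 164 in low Fe, under the filter boundary of 183 there, and 309 in high Fe. Clpb thus passed that filter through its high Fe samples, and its 230B difference is one near the floor.

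The endoplasmic reticulum list stayed near 0, with a median of 0.02 over 22 tested genes on 230A, 13 above 0, 9 below and 0 past the threshold. Dnajc3, a J protein of that compartment, had signals of 809.2, 827.9 and 770.8 in low Fe 1 to 3, against 681.9, 617.3 and 652.4 in high Fe 1 to 3. The groups did not overlap, and the difference was 0.30 ± 0.12 (limma adjusted p = 0.730). In 2 of the 22 genes the low Fe samples all lay above the high Fe samples, beside 5.61% of all tested probe sets. In 0 of the 22 they all lay below, beside 6.18% of all. Sel1l, an adaptor of endoplasmic reticulum degradation, gave 0.39 ± 0.16 on 230B and -0.22 ± 0.21 on 230A. Among 10 tested genes of other stress responses 1 passed, Hmox1, the enzyme that degrades heme, with 1411.7, 1407.6 and 1526.8 in low Fe 1 to 3, against 696.6, 466.5 and 582.4 in high Fe 1 to 3. It rose by 1.31 ± 0.16 on the log2 scale (adjusted p = 0.0251), and did not pass without low Fe 2, low Fe 3, high Fe 2 or high Fe 3, where the adjusted p was 0.0586 to 0.190. Gclm, a subunit of the enzyme that starts glutathione synthesis, lay the other way at -0.52 ± 0.14 (adjusted p = 0.523), and its groups did not overlap. Of the 10 genes, 1 was higher in low Fe without overlap and 1 lower, beside 5.61% and 6.18% of all tested probe sets.

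Immediate early genes, which respond to stimulation within minutes, had a median of 0.24 over 15 tested genes on 230A, where that of the 6 chaperone genes was 0.25. Of these 11 lay above 0, 4 lay below and 0 passed, and 7 had low Fe samples that were all above the high Fe samples, beside 5.61% of all tested probe sets. Fosb had signals of 339.8, 174.3 and 405.1 in low Fe 1 to 3, against 99.3, 79.7 and 145.9 in high Fe 1 to 3. Its low Fe samples were all higher, with a difference of 1.33 ± 0.31 (limma adjusted p = 0.462), and 1 alternative, hybridization controls set equal, let it pass. Egr1 had 1392.1, 1203.7 and 1208.7 in low Fe 1 to 3, against 1064.9, 647.6 and 751.4 in high Fe 1 to 3, a difference of 0.64 ± 0.19 (adjusted p = 0.561). Ier3 gave 0.45 ± 0.12 (adjusted p = 0.523) and Dusp1 0.61 ± 0.22 (adjusted p = 0.684), the second with -0.67 ± 0.56 for a much dimmer probe set. Jund gave 0.39 ± 0.14 on 230B (adjusted p = 0.456). Hspa1a shared the separation of the groups with these genes, and no relation between them was tested.

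**Figure D5:**
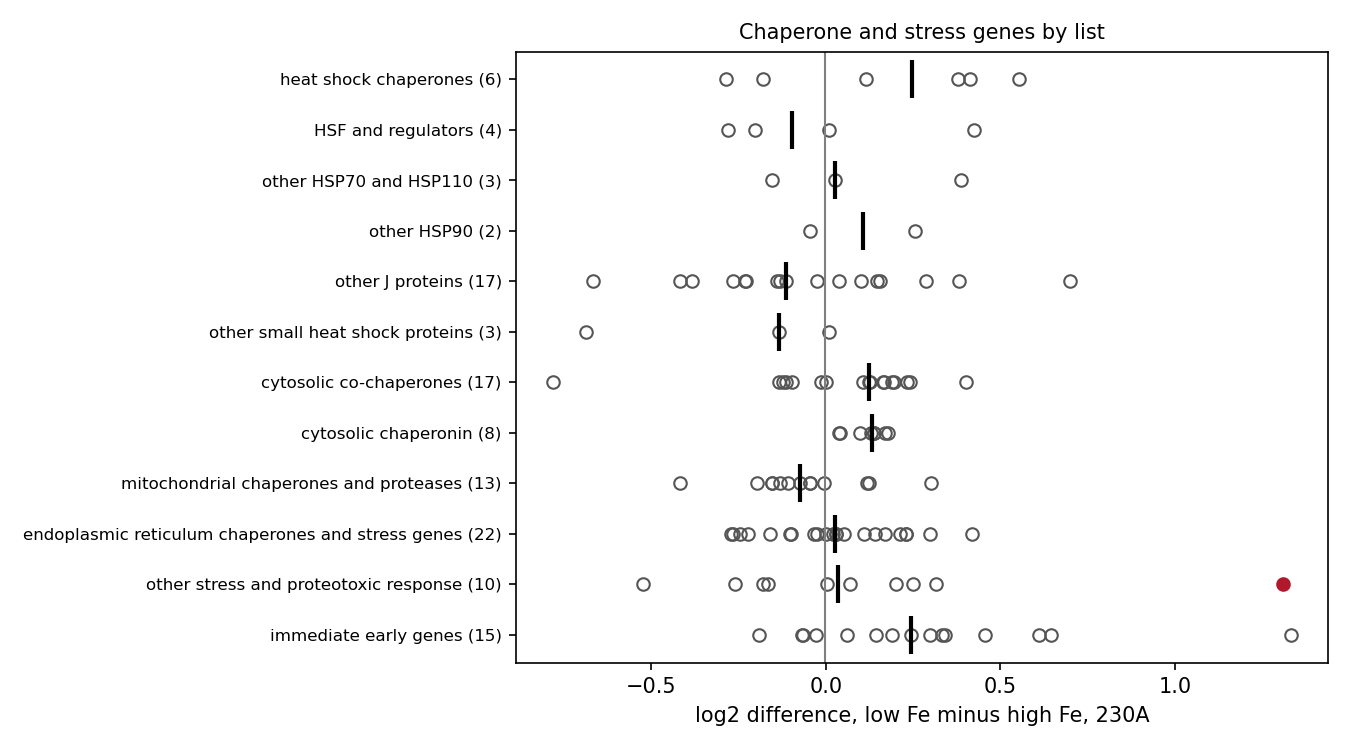
Log2 difference, low Fe minus high Fe, on 230A (horizontal axis) of each tested gene by list, with the number tested in brackets, a black bar at the median of a list and a filled point for the gene past the threshold. The vertical line is the median of all tested named genes, -0.0017; only Hmox1 passed, and all 8 cytosolic chaperonin genes lie right of the line.

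Over the 6 arrays of 230A, the named genes whose log2 levels were most like the mean profile of the 6 tested chaperone genes were Snrpe (r = 0.994), Timm8b (0.994), Ndufaf3 (0.991), Grpel1 (0.98) and Cox14 (0.98), out of 7045. They had log2 differences of 0.07 to 0.12, and 0 passed. Snrpe encodes a spliceosomal protein, and Timm8b, Ndufaf3, Grpel1 and Cox14 encode mitochondrial proteins of import, assembly and folding. Those most like Hspa1a alone were Stk38 (r = 0.984), Ddx3x (0.98), Tppp (0.978), Nat9 (0.976) and C1h19orf33 (0.975), with log2 differences of 0.28 to 0.73 and 0 past the threshold. With 6 arrays and so many genes, values of r this close to 1 come with the ranking.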

How the data were processed

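RNA was measured on 12 Affymetrix arrays, 6 of type 230A and 6 of type 230B, which were grouped by their titles. Arrays of both types were matched as 6 samples by group and number alone. The tables deposited by the authors hold 1 linear intensity per probe set and array, which from the values had been scaled to a common mean after trimming 2% at each end (500.1 on 230A, 500.2 on 230B). The sources used here do not give the software, and this scaling hides any change shared by most genes. Values were taken as log2(signal + 16), probe sets in the lowest 40% by mean log2 were left out, and limma 3.58.1 (R 4.3.3; lmFit, eBayes with a trend) compared low Fe with high Fe on each type, with Benjamini-Hochberg adjustment over everything tested on a type and a threshold of 0.05. This left 9519 probe sets on 230A and 9165 on 230B. Differences of dim genes are understated on this scale. The number of arrays limits the precision, and signals are not compared between probe sets.

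Gene symbols come from the platform annotation and promoters from RefSeq (GRCr8). Probe sets with several symbols were tested but not named. The members and lists were chosen with earlier results of these data known. Named list genes were the up to 4 per list and type with the smallest p and those past the threshold, of which some were left out after their values were seen. Cct8, Clpb and Sel1l are given on 230A beside 230B, where the rule took them, and this was chosen after their values were seen. Correlations used exact permutation tests over the 6 arrays. The steps were tested on simulated data. Each alternative changed the pseudocount, the filter, the scaling, the eBayes settings, a block, the arrays included, the threshold (0.1) or the summary over probe sets.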

Additional observations from a re-analysis of the deposited data

How the results depend on the processing

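The heat shock chaperones gave 0 probe sets past the threshold under every alternative run. Over all alternatives, 153 values of their probe sets kept their direction and 6 did not. With hybridization controls set equal, Dnajb1 lay at 0.19 and 0.070 and Dnaja1 at 0.088 and 0.19, Hsbp1 at 0.16 and Hspa9 at 0.21, Cct7 on 230B at 0.078, the median of the chaperone genes was 0.62, and Fosb passed at 1.65. That scaling called 33 probe sets on 230A (25 higher, 8 lower) and 4 on 230B. The replicate block called 4 on 230A, a threshold of 0.1 called 15 (12 higher, 3 lower), and the GAPDH ratio sets as a block called 14 (11 higher, 3 lower), with Hsf1 at -0.042, Hspe1 at 0.23 against 0.38 without the block, and the chaperone median at 0.13 against 0.25. Leaving out 1 array gave 5 to 21 calls on 230A and 0 on 230B, and a chaperone median of 0.09 to 0.41. Hsph1 on 230B ran from -0.16 without low Fe replicate 3 to 0.17 without high Fe replicate 2. Hsf1 ran from -0.18 without high Fe replicate 2 to 0.12 without high Fe replicate 3, Cct4 from -0.0044 without low Fe replicate 2 to 0.32 without low Fe replicate 1, and Hspa9 from -0.29 without low Fe replicate 2 to 0.0064 without high Fe replicate 3. Cct7 on 230B also lay at 0.014 with quantile normalization and 0.027 with a common median, and ran from -0.26 without high Fe replicate 2 to 0.084 without high Fe replicate 1. Averaging every tested probe set of a gene gave -0.72 for Hsp90ab1 and -0.029 for Dusp1. Hmox1 kept its direction and did not pass with no filter (adjusted p = 0.0737) or the replicate block (0.152). The causes were not tested. Samples with the same number did not deviate together (r from -0.356 to -0.0993 over both types). This cannot decide whether they were paired, because on 230A samples of the same number fell in opposite GAPDH ratio sets. No chaperone passed with or without the replicate block, so its calls do not bear on pairing either.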
